A study of Caenorhabditis elegans with 3 samples.

Results

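The genes described are the numbered cuticle collagen genes of the nematode *Caenorhabditis elegans*, those named *col* with a number. They were taken as every probe whose only gene symbol in the platform's annotation is such a name, which gave 135 genes of the 14936 named genes and 19075 features tested. Each had 1 probe, and all 135 had a value on all 3 arrays, so 135 of 135 were tested and none was lost to a filter. The current RefSeq gene table lists 159 such symbols, 3 of them pseudogenes, and 24 of the 159 were not members by this rule. The gene ID that the probe annotation gives for *col-175* is not in that table, which lists the symbol under another ID, so the symbol was kept as annotated and the gene given no chromosome.

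The samples were RNA from hermaphrodites at mid-L3, the middle of the larval stage before the last one. There were 3 preps, labelled 1 to 3, each hybridised on its own two-colour array against a common wild-type RNA, labelled a mixed reference with no word on its make-up. All 3 mid-L3 labels also carry the code TP01, which is not explained. Each array title holds what reads as its own array number and its own date, so prep, array and date cannot be told apart. The sources used here give no strain, genotype, temperature or culture for the mid-L3 animals, nor whether the preps came from separate cultures, so p-values measure only the spread between these 3 preps and leave out that of the reference. Each value is a log2 ratio of the 2 channels, so a difference of 1 is a 2-fold difference, and every array was first centred on its median.

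Cuticle collagens are small secreted proteins built around repeats of glycine and a pair of further residues, which wind into triple helices and are cross-linked into the layers of the exoskeleton. The epidermis makes a new cuticle under the old one before each moult, and collagen genes are known to be switched on in waves within every moulting cycle. Some are used at one stage only, such as the dauer larva, a resting alternative to L3 or the adult. No sequence of a member or its probe was used here, and whether related members share signal by cross-hybridisation was not tested.

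No source states the direction of the ratio. The descriptions write mid-L3 before the reference, and the labels put the reference in the first channel and mid-L3 in the second, so mid-L3 over reference is the likely reading. Of 14 oocyte and eggshell genes, for products that mid-L3 animals do not yet make, 12 were negative past the threshold and 0 positive, with medians of -2.95, -2.88 and -3.03 in preps 1, 2 and 3. Of 30 major sperm protein genes 29 were negative and 0 positive. Of 6 yolk protein genes listed 3 were measured, and they did not all go the same way. *vit-2* was negative at -5.51 ± 0.78, and *vit-5* and *vit-6* lay at 0.52 ± 0.68 and 0.14 ± 0.41 without passing. Signs are given as deposited, and all counts below hold for the sign of the table. Of 11 genes of the epidermis other than collagens 7 were positive and 0 negative, with medians of 1.39, 1.64 and 1.06. Over all features 13.5% were positive and 13.6% negative. The positive ones were *noah-1*, *noah-2*, *qua-1*, *fbn-1*, *ptr-4*, *nhr-23* and *mlt-10*. The other 4, *che-14*, *lin-26*, *nhr-25* and *elt-3*, lay at 0.63, 0.52, 0.41 and -0.09 without passing, so the list did not move as one. In RNA from whole animals more epidermal cells and more RNA per cell cannot be told apart, and the part that these markers play in the collagen ratios was not tested.

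The numbered collagens split to both sides of the reference. Of the 135 genes, 38 had a positive mean log2 ratio past the threshold and 34 a negative one, where the threshold was a Benjamini-Hochberg adjusted p under 0.05 in limma over all features. Over the 19075 features 13.5% were positive and 13.6% negative by this test, against 28.1% and 25.2% of the collagens. The other 63 collagens passed in neither direction. Means ran from -4.44 for *col-36* to 3.10 for *col-149*, with a median of 0.19 and quartiles of -0.68 and 0.92. The median was 0.24, 0.04 and 0.17 without preps 1, 2 and 3. Over all features the median was 0.01, with quartiles of -0.28 and 0.32. The median size of a ratio, regardless of sign, was 0.81 for the collagens and 0.30 for all features.

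**Figure D1:**
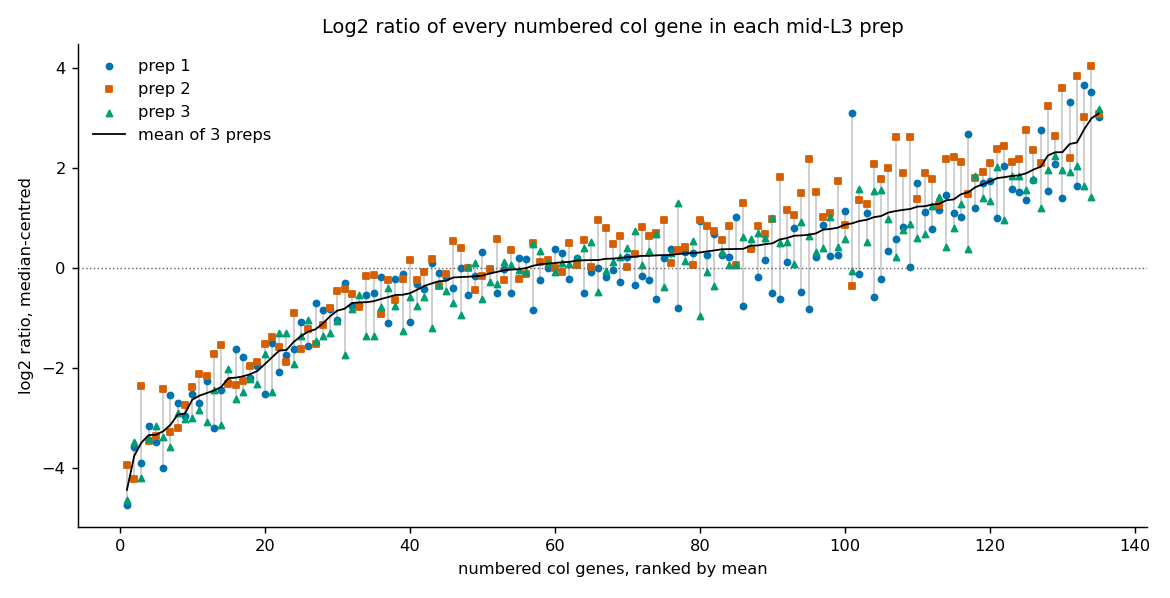
Log2 ratio of each of the 135 numbered col genes (vertical axis, median-centred) in preps 1, 2 and 3 (coloured points), ranked by the mean of the 3 preps (black line), with a grey bar from the lowest to the highest prep. Genes at the low end lie below 0 in every prep, genes at the high end above 0 in every prep, and prep 2 is the highest of the 3 for 85 of the 135 genes.

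Large ratios were common on both sides. With a mean above 1 asked for as well, 31 collagens were positive, against 6.24% of all features, and with a mean below -1, 28 were negative, against 6.46%. Beyond 2 on the log2 scale, the negative side held more genes, with 19 below -2 and 9 above 2, as it did over all features, with 314 and 211. Called negative genes had a median of -2.15 and called positive genes one of 1.50. Over all features these medians were -0.97 and 0.96.

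Each prep was left out in turn. Without prep 2, 27 of the 38 positive genes kept their call, and without prep 1 or prep 3, 35 each. Of the 34 negative genes, 32 kept it without prep 1, 32 without prep 2 and 29 without prep 3. These fits differ in more than the prep, because limma moderates each gene's spread towards a common one, and it gave every gene the same spread without prep 1 or prep 3 but not without prep 2. With the moderation held at that of all 3 arrays, an alternative chosen after seeing the data and called held moderation below, 35, 29 and 33 positive and 31, 31 and 30 negative genes kept their call without preps 1, 2 and 3. In all, 28 positive and 29 negative genes kept it whichever prep was left out in that way, and 26 and 29 with the moderation estimated anew. Over all features, 1997, 1627 and 2018 were positive and 1770, 2007 and 1857 negative without preps 1, 2 and 3 under held moderation. Without prep 2 the positive count was thus the lowest and the negative count the highest. These are all calls of each fit and not calls kept, so they are not the same measure as above. At the threshold itself, *col-34* lay just inside at 0.65 ± 0.51 (errors throughout are the SD over n = 3 preps; limma adjusted p = 0.048) and *col-165* just outside at -0.69 ± 0.62 (limma adjusted p = 0.0501).

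**Figure D2:**
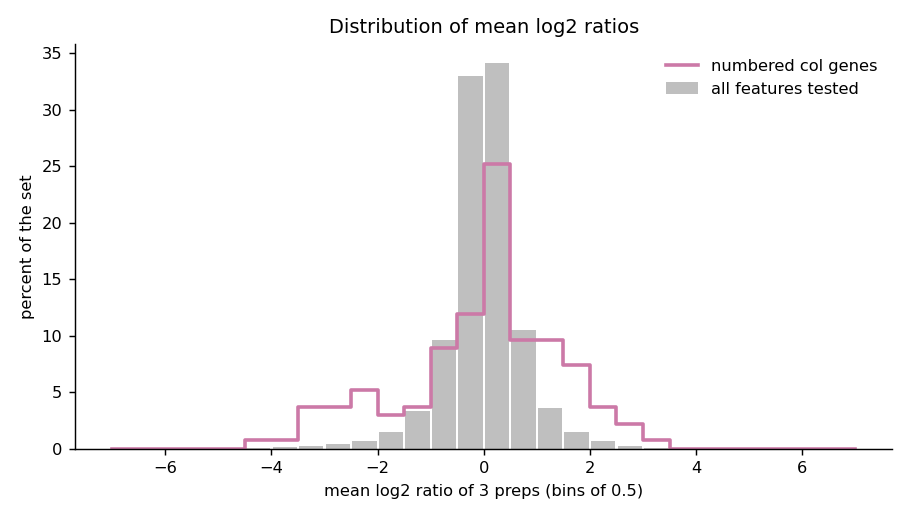
Share of genes (percent, vertical axis) by mean log2 ratio over the 3 preps (horizontal axis, bins of 0.5), for the 135 numbered col genes (line) and all 19075 features tested (bars). Both sets peak between 0 and 0.5, with 25.2% of the collagens and 34.1% of all features there, and the collagens have heavier tails on both sides.

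The gene with the lowest ratio was *col-36*, at -4.75, -3.95 and -4.64 in preps 1, 2 and 3. Its mean of -4.44 ± 0.43 is a 21.8-fold difference (limma adjusted p = 2.72e-07). All 3 preps lay far below 0, and prep 2 was the least negative. *col-2*, which encodes a collagen mainly of the dauer cuticle, followed at -3.58, -4.23 and -3.49, a mean of -3.77 ± 0.40 and a 13.6-fold difference (limma adjusted p = 5.52e-07). Here prep 2 was the most negative, so the 2 lowest genes order the preps differently.

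The next genes differed in how closely their preps lay together. *col-158* was at -3.91, -2.37 and -4.22, with a mean of -3.50 ± 0.99, and prep 2 stood well above the other preps. *col-140* was at -3.16, -3.46 and -3.43, a mean of -3.35 ± 0.16. *col-164* was at -3.49, -3.38 and -3.17, a mean of -3.34 ± 0.16. In these last 2 genes the preps nearly coincided. *col-8* resembled *col-158*, at -4.02, -2.42 and -3.38 and a mean of -3.27 ± 0.81. The remaining genes of the lowest 10 were *col-178*, *col-84*, *col-123* and *col-184*, with means from -3.14 to -2.64 and SDs from 0.14 to 0.53. Adjusted p in limma ran from 2.72e-07 to 9.22e-06 over the 10 genes.

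At the other end, *col-149* had the highest ratio and was among the most even genes, at 3.02, 3.09 and 3.18 in preps 1, 2 and 3. Its mean of 3.10 ± 0.08 is an 8.56-fold difference (limma adjusted p = 7.24e-07). *col-17*, a larval collagen gene that the transcription factor LIN-29 is known to repress at the change to adulthood, was nearly as high on average but not even, at 3.52, 4.05 and 1.42. Its mean was 3.00 ± 1.39, a 7.99-fold difference (limma adjusted p = 1.55e-04), and prep 3 lay far below the other preps. With robust moderation, one of the alternative settings, its limma adjusted p was 0.0237. *col-90* also had its lowest value in prep 3, at 3.67, 3.02 and 1.65 and a mean of 2.78 ± 1.03.

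Prep 2 stood out upward in several others. *col-166* was at 1.65, 3.85 and 2.03, a mean of 2.51 ± 1.18. *col-117* was at 1.39, 3.60 and 1.97, a mean of 2.32 ± 1.14. *col-168* was at 1.55, 3.25 and 1.97, a mean of 2.25 ± 0.89. In these 3 genes prep 1 was the lowest, although still well above 0. *col-10*, studied for its part in long-lived mutants, had its highest value in prep 1, at 3.32, 2.20 and 1.93 and a mean of 2.48 ± 0.74. The other genes of the highest 10 were *col-144*, *col-73* and *col-154*, with means of 2.32 ± 0.29, 2.03 ± 0.78 and 1.97 ± 0.35. Adjusted p in limma ran from 7.24e-07 to 3.34e-04 over these 10 genes.

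**Figure D3:**
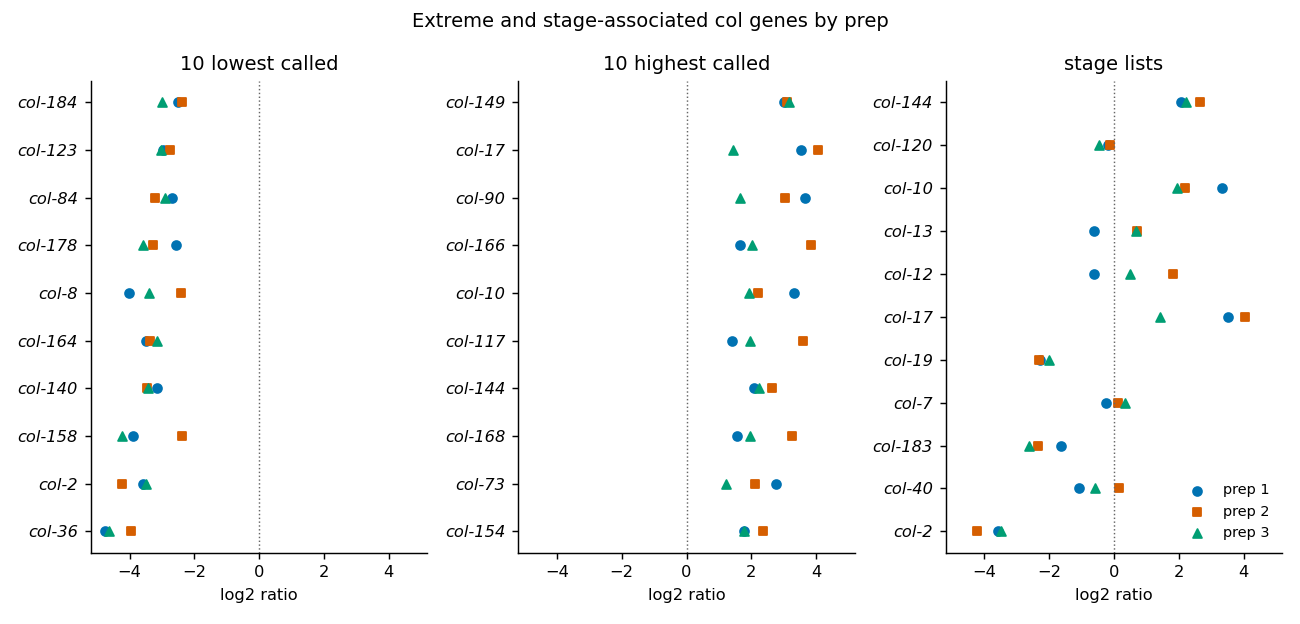
Log2 ratio (horizontal axis) of the 10 lowest and the 10 highest called col genes and of the 11 measured genes of the stage lists, with 1 point for each of preps 1, 2 and 3. The lowest genes lie below -2 and the highest above 1 in every prep, and the spread between preps is wide for col-17 and col-166 and narrow for col-149 and col-140.

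The other 24 negative collagens, named after their values were seen, had means from -2.56 to -0.62 and SDs from 0.12 to 0.81. Near the lower end were *col-35* at -2.70, -2.12 and -2.85, *col-181* at -2.27, -2.16 and -3.08 and *col-116* at -3.21, -1.72 and -2.44 in preps 1, 2 and 3. Prep 2 was the least negative in all 3 of these genes. Even ratios were seen for *col-85* at -2.20, -1.96 and -2.22 and *col-114* at -1.97, -1.88 and -2.33. *col-179* at -1.63, -0.90 and -1.92 lay between these and the edge of the list, with prep 2 nearest to 0. *col-119* at -0.70, -1.52 and -1.46 had its smallest ratio in prep 1 instead. The weakest calls included *col-131* at -0.30, -0.42 and -1.74, where prep 3 alone was far from 0, and its call was lost without prep 2 and without prep 3. *col-50* lost its call in the same 2 cases, at -0.17, -0.92 and -0.77.

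The other 28 positive collagens, also named after their values were seen, had means from 0.65 to 1.90. Their SDs ran from 0.12 to 1.33, and prep 2 was the highest for 22 of them, as it was for 54.1% of all positive features. *col-127* was at 1.36, 2.76 and 1.57, *col-180* at 1.58, 2.12 and 1.83 and *col-156* at 2.04, 2.45 and 0.97. All 3 genes stayed well above 0 in every prep. *col-155*, next but one to *col-154*, was at 1.74, 2.11 and 1.35, and *col-157* at 1.71, 1.92 and 1.41. *col-126* and *col-161* were at 1.21, 1.80 and 1.85 and 1.02, 2.12 and 1.29. *col-37* was at 0.57, 2.62 and 0.23 and *col-39* at 0.02, 2.63 and 0.89, with prep 2 far above the others, and both lost their call without it, also under held moderation. *col-79* was at 2.69, 1.49 and 0.37, with prep 1 the highest, and its call was lost without prep 2 but not under held moderation.

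The 63 collagens past the threshold in neither direction had means from -0.69 to 1.02. Prep 2 was the highest for 40 of them, or 63.5%, against 42.1% of all features, called or not. Of these genes 50 had a mean within 0.5 of 0. They included genes whose preps lay close together near 0, such as *col-56* at 0.0042, 0.15 and 0.11 and *col-186* at 0.20, 0.06 and 0.19, named after their values were seen. They also included genes whose preps cancelled, such as *col-153* at 0.94, 0.96 and -0.97 and *col-146* at -0.81, 0.35 and 1.30. A mean near 0 therefore does not describe the same data in both kinds of gene. *col-62*, the neighbour of *col-7*, was at -0.54, -0.0076 and 0.02, and *col-120* and *col-121* were at -0.19, -0.12 and -0.46 and -0.40, 0.53 and -0.70.

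Genes known for one stage were next taken as small lists. The dauer list held *col-2*, *col-40* and *col-183*, and *col-6*, the fourth gene listed, was not among the members. Of the 3, 2 were negative past the threshold. *col-183*, used as a reporter of entry into dauer, was at -1.63, -2.34 and -2.62, a mean of -2.20 ± 0.51 (limma adjusted p = 2.70e-05). *col-40*, also linked to dauer, did not pass at -1.09, 0.16 and -0.59, a mean of -0.51 ± 0.63 (limma adjusted p = 0.145). Its prep 2 value was above 0 and the others below, and without prep 2 it passed at -0.84 (limma adjusted p = 0.0358). Of 7 other dauer-associated genes 3 were negative, or 42.9%, and 0 positive, where 13.6% of all features were negative and 13.5% positive. The lowest was *hsp-12.6*, of the small heat shock proteins, at -4.56 ± 0.54. The superoxide dismutase gene *sod-3* and the catalase gene *ctl-1* lay at -0.32 ± 0.38 and -0.21 ± 0.11 without passing. The part of these genes in the collagen values was not tested.

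The adult list gave 2 different results. *col-19*, the standard marker of the adult epidermis, was at -2.29, -2.31 and -2.02, a mean of -2.21 ± 0.16 and a 4.62-fold difference (limma adjusted p = 7.66e-06). *col-7*, also known as an adult collagen gene, lay near 0 at -0.24, 0.12 and 0.34, a mean of 0.08 ± 0.29 (limma adjusted p = 0.833). No intensity was used here, so a dim spot with a ratio near 0 could not be told from a bright one.

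*col-12* and *col-13*, adjacent and closely related genes used at all larval stages, passed in neither direction. *col-12* was at -0.62, 1.82 and 0.51, a mean of 0.57 ± 1.22 (limma adjusted p = 0.272). *col-13* was at -0.62, 0.70 and 0.68, a mean of 0.25 ± 0.76. Both lay below 0 in prep 1 and above 0 in the other preps, and without prep 1 *col-12* passed at 1.16 (limma adjusted p = 6.51e-04). Of the genes studied in long-lived mutants, *col-10* and *col-144* were positive, and *col-120* was at -0.26 ± 0.18 without passing.

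A pair of members is known for work outside the common larval cuticle. *col-34*, known from its mutants as a gene for the shape of the sensory rays of the male tail, was at 0.79, 1.06 and 0.08 in these hermaphrodites. Its call at the edge of the threshold was lost without prep 1 (0.57, limma adjusted p = 0.163) and without prep 2 (0.44, limma adjusted p = 0.242). *col-99*, which encodes a transmembrane collagen that acts in the nervous system rather than a cuticle protein, was at 0.37, -0.0045 and -0.07, a mean of 0.10 ± 0.24 (limma adjusted p = 0.772).

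The spread between preps was wider for the collagens than for most features. The median SD over the 3 arrays was 0.47 on the log2 scale for the 135 genes and 0.29 for all features. A wide spread was not particular to the numbered collagens. The median SD was 0.60 for the 16 measured collagens named by mutant phenotype and 0.61 for the 11 epidermal genes other than collagens. It was 0.47 for 18 collagen processing genes and 0.30 for 15 collagen regulators. Among called genes it was 0.68 for positive and 0.37 for negative collagens, and 0.34 and 0.29 for positive and negative features of the whole table. The positive collagens thus had the widest spread of these sets. Of the 135 collagens 93 had the same sign on all 3 arrays, or 68.9%, against 54.6% of all features. Within each kind of call the collagens showed no such excess. The shares were 94.7%, 100% and 36.5% of positive, negative and uncalled collagens, against 99.1%, 99.6% and 37.9% of features. Across the 135 genes the arrays correlated at 0.851 for preps 1 and 2, 0.845 for preps 1 and 3 and 0.917 for preps 2 and 3. Over all 19075 features the same correlations were 0.740, 0.812 and 0.762, so preps 1 and 3 were the closest pair there and preps 2 and 3 among the collagens. These correlations run over genes, and the arrays share 1 reference RNA.

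The preps were not evenly ordered around each gene's mean. Prep 2 was the highest of the 3 for 85 collagens, or 63%, against 42.1% of all features. It was the lowest for 21, or 15.6%, against 35.1%. Preps 1 and 3 were each the lowest for 57 collagens, or 42.2%, against 35% and 29.9% of all features. The median deviation from a gene's own mean was -0.08 in prep 1, 0.32 in prep 2 and -0.17 in prep 3, where all features had -0.03, 0.03 and -0.02. Prep 2 was the highest for 28 of the 38 positive collagens and the lowest for 0 of them, while among all positive features it was the highest for 54.1% and the lowest for 19.5%. The arrays were also centred within blocks of 25 by 25 probes in table order, which removes differences between stretches of the table. Prep 2 was then the highest for 85 collagens again, or 63%, against 42.3% of all features, and the lowest for 13. The epidermal genes other than collagens had medians of 1.39, 1.64 and 1.06 in preps 1, 2 and 3, and the numbered collagens -0.12, 0.40 and 0.09. Both were highest in prep 2, but the lowest was prep 3 for the epidermal genes and prep 1 for the collagens. The part of the epidermal genes in the order of the preps was not tested.

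**Figure D4:**
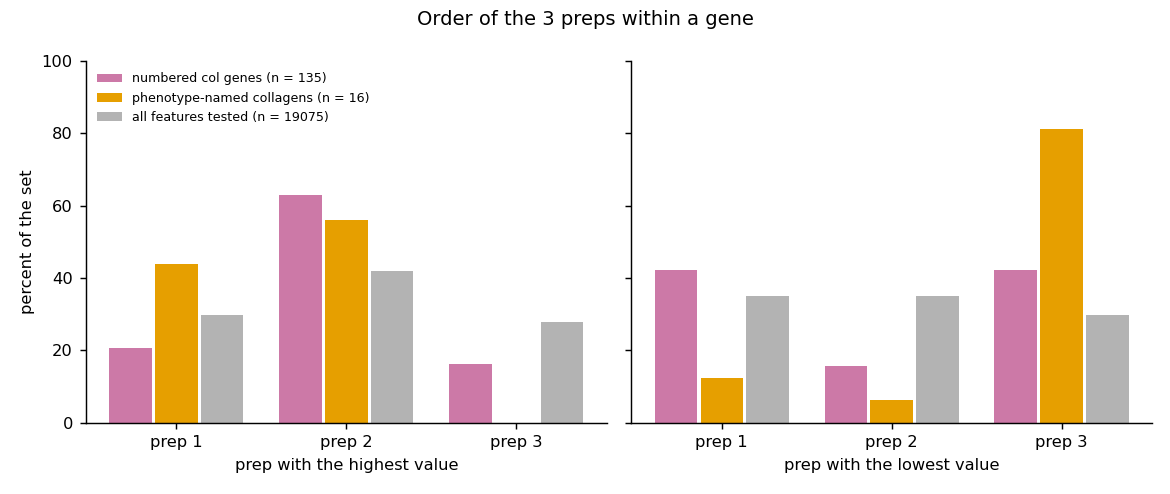
Percent of genes (vertical axis) whose highest value (left) or lowest value (right) fell in prep 1, 2 or 3, for the 135 numbered col genes, the 16 measured collagens named by mutant phenotype and all 19075 features. Prep 2 is the highest for 63% of the numbered genes, and prep 3 is the lowest for 81.2% of the phenotype-named genes.

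A block of genes was below 0 in prep 1 and above 0 in both other preps. It held 22 collagens, or 16.3%, against 7.42% of all features. Among them were *col-12* and *col-13*, the neighbours *col-92*, *col-93* and *col-94*, the neighbours *col-159* and *col-160*, and *col-98*, *col-80* and *col-146*, named here after their values were seen. *col-92* was at -0.58, 2.08 and 1.55 and *col-94* at -0.22, 1.79 and 1.55. *col-93* and *col-94* were called positive, and both calls were lost without prep 2, without prep 3 and with centring within blocks. The reverse case, above 0 in prep 1 alone, held 5 genes, which were *col-9*, *col-41*, *col-99*, *col-105* and *col-132*, or 3.7% of the collagens against 7.19% of all features.

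The 3 widest spreads belonged to genes that did not pass. *col-132* was at 3.11, -0.37 and -0.06, an SD of 1.92, and its mean rests on prep 1. Without prep 3 it passed at 1.37 (limma adjusted p = 1.03e-04), but not under held moderation (limma adjusted p = 0.136). *col-98* was at -0.83, 2.17 and 0.65, an SD of 1.50. Without prep 1, *col-98* passed at 1.41 (limma adjusted p = 1.89e-05) and *col-92* at 1.82 (limma adjusted p = 1.26e-08), and both passed under held moderation too (limma adjusted p = 0.0132 and 5.94e-04). The narrowest spreads among called genes were those of *col-149*, of *col-150* at 1.17, 1.27 and 1.41 and of *col-60* at -0.74, -0.78 and -0.55. The call of *col-60* was lost without prep 1 (-0.66, limma adjusted p = 0.0901) and without prep 3 (-0.76, limma adjusted p = 0.0611) and kept without prep 2 (-0.64, limma adjusted p = 0.0492). Under held moderation its adjusted p in limma was 0.0739, 0.086 and 0.0418 without preps 1, 2 and 3, so which calls were lost turned on the moderation.

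The members are scattered over chromosomes I to V and X, by the RefSeq table. Positive genes made up 12 of 29 on chromosome V, 10 of 33 on IV, 6 of 21 on II, 5 of 23 on X, 4 of 10 on III and 1 of 18 on I. Negative genes numbered 5, 10, 6, 7, 1 and 5 in the same order. The medians ran from -0.03 on X to 0.82 on III, and these differences were not tested. Over all features, whatever their chromosome, 13.5% were positive and 13.6% negative. These shares were not worked out for each chromosome. Whether the differences between chromosomes are particular to the collagens was therefore not tested.

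Collagens that are direct neighbours on a chromosome mostly had like ratios. In 21 pairs, of 38 genes, no protein-coding gene began between the 2 members. Their means differed by a median of 0.49 on the log2 scale, against 1.36 over the 9045 pairs of members and 1.38 over the 1595 pairs on one chromosome. In 15 of the 21 pairs, or 71.4%, both genes had the same call, against 35.6% of all pairs of members and 34.7% of those on one chromosome. The probes of adjacent genes were not side by side in the table, being 1229 to 9379 places apart, though 9 of the pairs lay a whole multiple of 8 blocks apart, and so at the same place within their blocks, and 16 of the 21 were within 25 places of such a multiple. The part of this shared position in the like ratios was not tested. The pairs share genes and were not tested.

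Examples of like neighbours, named after their values were seen, are on chromosome V *col-145* at 1.86 ± 0.33 between *col-144* and *col-10*, and on chromosome X *col-184* at -2.64 ± 0.33 beside *col-183*. On chromosome IV *col-3* lay at 1.80 ± 0.72 beside *col-117*. Calls were opposite in 2 pairs, both around *col-20* on chromosome II. *col-20* was at -1.49, -1.39 and -2.48, a mean of -1.79 ± 0.60 (limma adjusted p = 1.72e-04). On its sides lay *col-73* at 2.77, 2.10 and 1.21 and *col-17*, both above 1 in every prep. The widest gap among the 21 pairs was that of *col-20* and *col-17*, at 4.79 log2 units. A smaller gap of 1.99 separated *col-167* at 0.26 ± 0.14 from *col-168*.

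**Figure D5:**
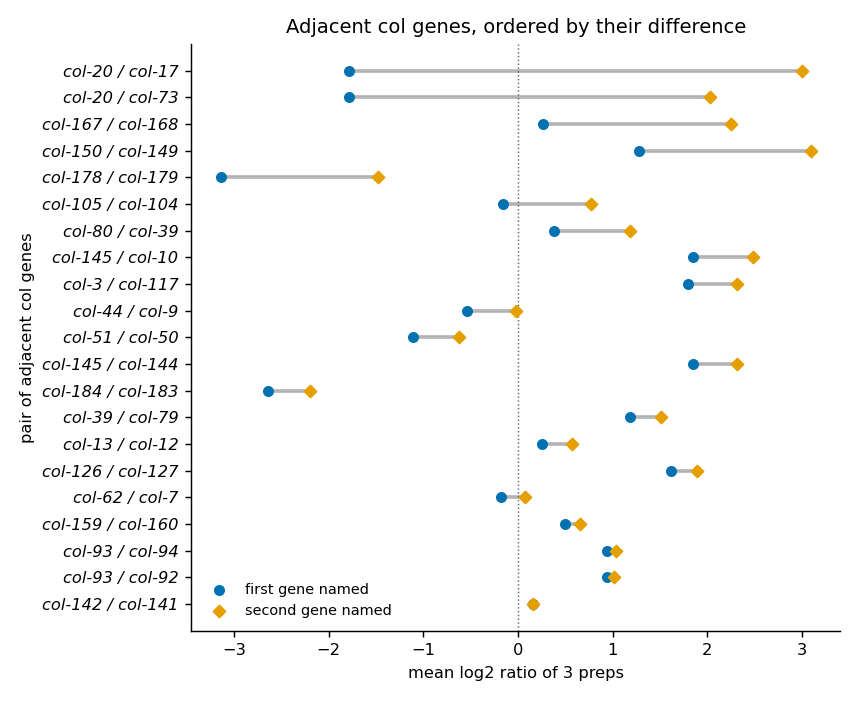
Mean log2 ratio over the 3 preps (horizontal axis) of both genes in the 21 pairs of adjacent col genes, ordered by their difference, with a grey bar joining the pair and the lower gene named first. Most bars are short, and only the 2 pairs with col-20 join a negative to a positive call.

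Collagen genes named for the shape of their mutants were set beside the numbered ones. Of 20 listed, 16 were measured, and 12 of these were positive and 1 negative past the threshold, or 75% and 6.25%. Over all features these shares were 13.5% and 13.6%. The median of the 16 was 2.04 beside that of 0.01 over all features. The farthest from 0 were *sqt-1* at 3.49, 4.46 and 1.60, *dpy-8* at 3.46, 3.40 and 2.38 and *sqt-2* at 3.49, 3.60 and 1.45. *sqt-1* and *sqt-2* are known from squat and roller mutants, and *dpy-8* belongs to the collagens of the annular furrows. Like *col-17* and *col-90*, these 3 had prep 3 as the lowest. Over the 16 genes the medians were 2.48, 2.56 and 0.80 in preps 1, 2 and 3. Prep 3 was the lowest for 13 of them, or 81.2%, against 29.9% of all features. Over the numbered collagens the medians were -0.12, 0.40 and 0.09. The median of the mutant-named genes was thus above 0 in every prep and higher in preps 1 and 2 than in prep 3. In both sets the median was highest in prep 2. That prep was the highest for 9 of the 16 mutant-named genes, or 56.2%, and for 63% of the numbered ones, against 42.1% of all features. The difference between the sets was not tested.

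Of 19 genes for the folding, hydroxylation, secretion, trimming or cross-linking of collagen 18 were measured. Of these 7 were positive and 1 negative, or 38.9% and 5.56%, with a median of 0.60. Over all features 13.5% were positive and 13.6% negative, with a median of 0.01. The farthest were 3 protein disulfide isomerase genes, *pdi-6* at 1.87, 2.85 and 1.93, *pdi-3* at 1.78, 2.36 and 1.58 and *pdi-2* at 1.02, 2.28 and 1.76. Their highest value was in prep 2, as for most collagens and for 54.1% of all positive features. *pdi-2* encodes the partner subunit of prolyl hydroxylase, and *dpy-18*, for a catalytic subunit of that enzyme, was at 1.21 ± 0.09 (limma adjusted p = 4.59e-04). The protease genes *bli-4* and *dpy-31*, whose products trim procollagen, lay at 0.40 ± 0.05 and 0.0027 ± 0.08 and did not pass.

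Of 16 regulators of collagen genes or of the moult 15 were measured, and 5 were positive and 0 negative, with a median of 0.41. The positive share was 33.3%, against 13.5% of all features, of which 13.6% were negative and the median was 0.01. The farthest were *myrf-1*, a membrane-bound transcription factor of larval moulting, at 1.44, 1.88 and 2.00, *lin-42*, the worm's Period homologue that paces the moults, at 1.97, 1.36 and 1.03, and *nhr-23*, a nuclear receptor that drives moulting genes, at 0.68, 1.64 and 1.65. The preps are ordered differently in each, with *lin-42* highest in prep 1 and *nhr-23* lowest there. *lin-29* and its cofactor gene *mab-10*, which act at the change from larva to adult, were at 1.18 ± 0.67 and 1.17 ± 0.17. The epidermal GATA factor genes *elt-1* and *elt-3* lay at -0.14 ± 0.05 and -0.09 ± 0.16 and did not pass.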

How the data were processed

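The deposited table holds the authors' log2 ratio of the 2 channels for each probe on each array. The sources used here do not give the scanner, dyes, background correction or normalization. The log2 scale was read from the values: turned back into ratios with base 2, at least 99.98% on every array were whole thousandths (steps of 0.001, tolerance 0.01 of a step). Deposited medians were 0.02715, -0.06643 and 0.03281 in preps 1, 2 and 3. How the authors centred the arrays and the direction of the ratio stay unknown. The number of arrays limits the precision.

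The platform annotation, which is old, listed 1 gene for 15655 of the 20000 probes, several for 198 and none for 4147. Among those with several, 2 listed a *col* gene and were not used for it. Symbols were updated by Entrez identifier with the RefSeq table of WBcel235 (15569 matched), which also gave chromosomes and gene order. No member's symbol changed. Every array had the median of all its probes subtracted, probes of a gene were averaged, and features with a value on all 3 arrays were kept. The mean of each feature was set against 0 in limma 3.58.1 and R 4.3.3 (intercept, eBayes, two-sided, Benjamini-Hochberg over 19075 features). The same fit was run on simulated data, with normal errors and spreads drawn from limma's fitted prior. There 63 of 100 changes of 1 log2 unit and 100 of 100 of 2 were recovered, with 14 false among 177 calls. Far fewer features were changed there than were called in the data, so the simulation cannot vouch for these calls. Figures used matplotlib 3.10.9 in Python 3.11.15.

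Named members were the 10 highest and 10 lowest called with the same sign on all arrays, all of the stage lists, the 3 with the largest SD, the 3 called with the smallest, *col-34* and *col-99*, and the 3 farthest genes of each related list. The rule also covered genes whose probes disagree, of which there were 0, and pairs with near-identical proteins, which were not analysed here. Members, lists and rules were chosen with earlier results of these data known. Alternatives were other centrings, one scaling, fewer arrays per probe, single probes, robust moderation, array weights, a minimum mean of 1 and leaving out each prep, the last also with limma's prior spread held at that of all 3 arrays, which was chosen after seeing the data.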

Additional observations from a re-analysis of the deposited data

How the results depend on the processing

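Over the 16 alternatives the positive collagens numbered 27 to 45 and the negative ones 28 to 42, beside 38 and 34, and 0 of the 72 called collagens changed sign. The lowest positive count came without prep 2 and the highest without prep 1. Centring within blocks of probes kept 63 of the 72 calls. The median SD between preps was 0.47, and it was 0.43 with that centring, 0.51 with arrays scaled to one median absolute deviation, and 0.35, 0.34 and 0.41 without preps 1, 2 and 3, where it is taken over 2 arrays. Holding the moderation when a prep was left out gave 29 to 43 positive and 30 to 34 negative collagens. Asking for an absolute mean over 1 as well left 4 of the 7 positive collagen processing genes. For the 43 named genes, 661 of 688 values under an alternative kept both direction and call, 14 lost the call (*col-34* and *col-60*), 13 gained it (*col-12*, *col-40*, *col-92*, *col-98* and *col-132*), and 0 reversed. The cause was not tested, apart from the moderation. No paired analysis was possible because there is 1 group. Signal over background could not be weighed here.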
